A study of Mus musculus with 4 samples.

Results

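Interferon-stimulated genes are transcripts that cells switch on when an interferon binds its receptor. A list of 35 such genes was followed through the single-cell transcriptomes of mouse LSK cells, the Lin-Sca1+cKit+ stem and multipotent progenitor cells of the bone marrow. The list was fixed by name, with earlier results of these data known, and all 35 symbols were found among the 27998 genes counted. It holds 24 genes usually assigned to type I interferon, 9 usually assigned to interferon gamma and 2 assigned to both. The class is a label and does not exclude that a gene answers to the other interferon as well. The 4 libraries were 2 controls and 2 Nup358 knockouts, each made from the pooled bone marrow of 3 mice aged 9 to 12 weeks. Control mice, labelled wild-type, were Nup358 fl/fl mice without Cre in the study's methods. Knockout mice carried the same Nup358 fl/fl alleles with R26-CreERT2, a Cre that is expressed in every tissue and becomes active with tamoxifen, so the gene was also deleted in the marrow environment of the sorted cells. Nup358, encoded by Ranbp2, is a component of the nuclear pore. Tamoxifen was given, in the study's bone marrow counts to mice of both genotypes. Its own contribution to these transcripts, and that of active Cre in the knockouts, was not tested. Sca1, one of the antigens used for the sort, is the product of Ly6a, which is itself an interferon target.

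Type I interferons signal through the kinases Jak1 and Tyk2 to a complex with Stat2 and Irf9 that binds interferon-stimulated response elements. Interferon gamma signals through Jak1 and Jak2 to factors that bind gamma-activated sites. The products of the target genes sense viral nucleic acid, block viral translation and budding, attack the vacuoles of intracellular pathogens, present antigen and attract T cells. Blood stem cells are known to hold part of this programme at a basal level and to leave quiescence when interferon is given.

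The response element can be read directly in the promoters, and the stretches below are shown because they belong to genes on which the results turn and contain it next to the start of the gene. RefSeq promoter windows, from 250 bases before to 50 bases after each start, were at hand for 26 of the 35 members on GRCm38.p6. The element was searched as GAAANNGAAA and its complement TTTCNNTTTC, overlapping matches included, and the gamma-activated site as TTCNNNGAA, which reads the same on both strands. At least 1 window of 14 of the 26 genes held the response element, a share of 53.8%, against 3.99% of 27025 genes and 3.44% of 32851 windows in the whole table. Of the 26 genes, 6 held the gamma-activated site, 23.1% against 9.55% of all genes. By class, the response element was found in 9 of 17 type I members, 4 of 7 gamma members and 1 of 2 members of both classes, so these letters did not divide the classes. A match describes the sequence and does not show that a factor binds there. The sequences run 5′ to 3′ on the strand of the gene, with the response element in capitals. Isg15 lies at chr4:156200855-156200916 on the minus strand, Ifit1 at chr19:34640765-34640833 and Ifit3 at chr19:34583353-34583436 on the plus strand, Rsad2 at chr12:26456543-26456592 and Cxcl10 at chr5:92349073-92349122 on the minus strand, Igtp at chr11:58199502-58199551 on the plus strand and Bst2 at chr8:71537567-71537622 on the minus strand.
Isg15: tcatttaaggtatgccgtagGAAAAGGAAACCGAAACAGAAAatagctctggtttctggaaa
Ifit1: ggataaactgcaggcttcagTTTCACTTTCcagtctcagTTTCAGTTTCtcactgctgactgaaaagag
Ifit3: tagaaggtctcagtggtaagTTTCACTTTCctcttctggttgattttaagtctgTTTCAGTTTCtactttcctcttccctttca
Rsad2: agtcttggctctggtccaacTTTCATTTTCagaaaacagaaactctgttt
Cxcl10: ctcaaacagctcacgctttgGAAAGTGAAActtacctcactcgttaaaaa
Igtp: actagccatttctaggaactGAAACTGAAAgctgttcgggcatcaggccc
Bst2: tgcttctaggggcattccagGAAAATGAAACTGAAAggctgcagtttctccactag

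In the Isg15 stretch several elements overlap in a single run, and Ifit1 and Ifit3 each carry a pair of elements on the complementary strand. The element of Igtp ended 25 bases before the start and that of Cxcl10 204 bases before it. The windows of Ifitm1, a member called lower in several comparisons below, held no response element by these letters.

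Many cell barcodes were shared between libraries. Of 24973 barcodes that passed the quality filters, 10932 (43.8%) had at least 3 times as many UMIs, the molecule counts of this method, in another library. These copied barcodes made up 14.9% of control 1, 82.3% of control 2, 66.5% of knockout 1 and 19.2% of knockout 2. They were left out of the main analysis, and results that rest on them are given with and without. The cells kept numbered 7830 and 1200 in the controls and 1589 and 3422 in the knockouts, with 18846887 to 59033602 UMIs a library and median depths of 6251, 13176, 17707 and 14399 UMIs a cell. Control 1 was thus the shallowest per cell and the largest. The 3′ tags of Ranbp2 lie outside the deleted exon, and its level of 127 and 101 CPM (UMIs of a gene per 1000000 UMIs of the library) in the controls and 124 and 126 in the knockouts checks nothing about the deletion.

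Each transcript is counted once at its 3′ end, so levels could be set side by side without dividing by length. The median of 19166 detected genes was 4.61 CPM, and 33 of the 35 members lay above it, all but Cxcl9 and Mx1. The membrane proteins Ifitm3 and Ifitm1, which hinder viruses from fusing with membranes of the cell, were the most abundant. Ifitm3 was at 1196 CPM in control 1, 1225 in control 2, 1414 in knockout 1 and 1156 in knockout 2. Ifitm1 was at 1378 CPM in control 1, 1665 in control 2, 792 in knockout 1 and 786 in knockout 2, so that both knockout libraries lay well below both controls. Reads of the neighbouring and related genes Ifitm1, Ifitm2 and Ifitm3 could be divided wrongly in counting, and Ifitm2 showed 867 CPM in control 1, 774 in control 2, 531 in knockout 1 and 626 in knockout 2.

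**Figure D1:**
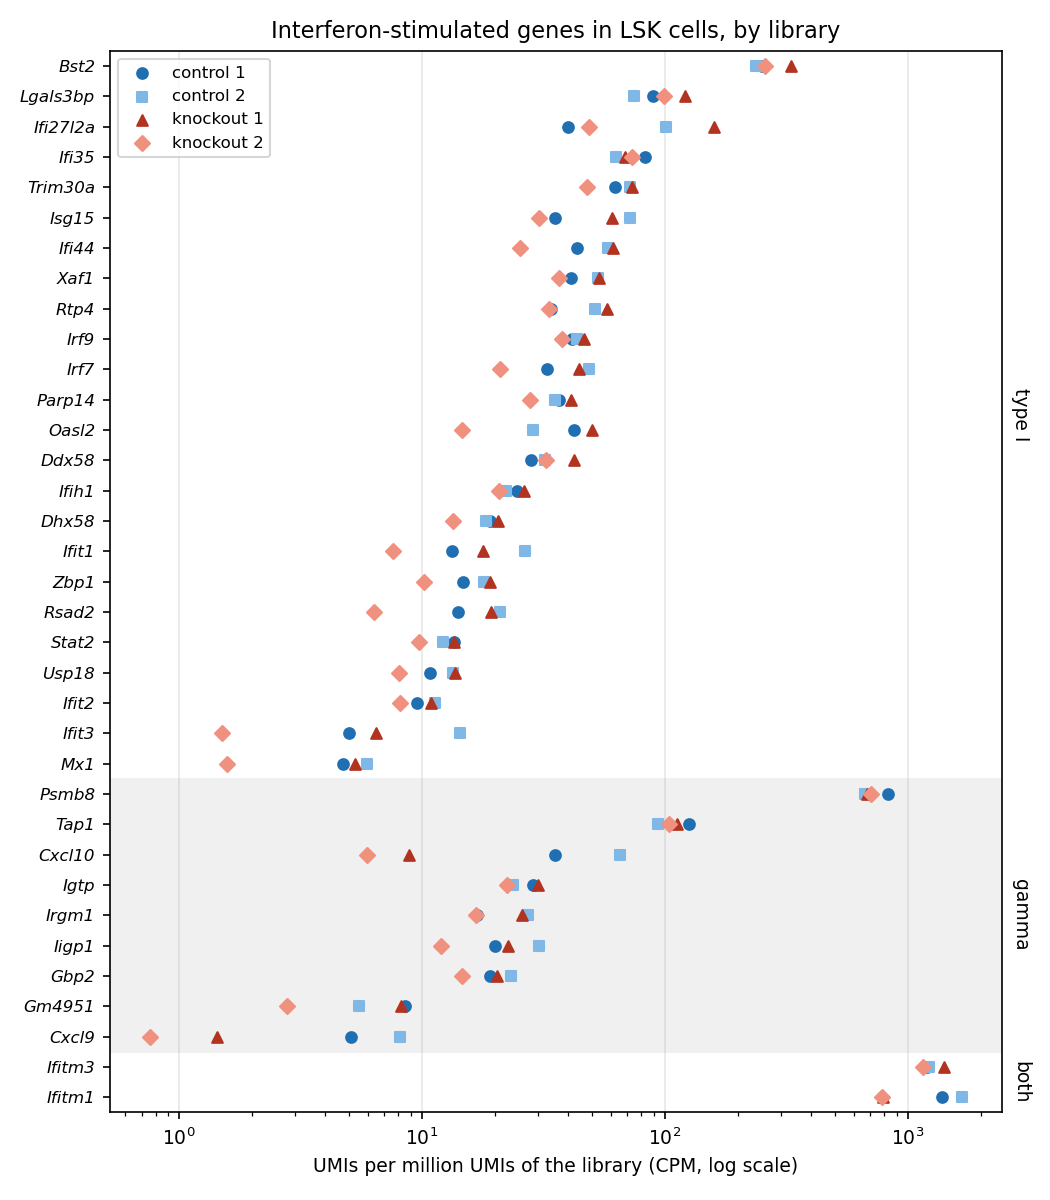
Level of each of the 35 members in the 4 libraries, as CPM on a log axis; each point is a library, and members are grouped by class. Ifitm3 and Ifitm1 sit near 1000 CPM and Cxcl9 below 10 CPM. Both knockout points lie below both control points for Cxcl10, Cxcl9 and Ifitm1, and above them, by less, for Bst2, Lgals3bp and Ddx58. How many of all genes separate in this way was not counted.

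Antigen processing genes of the gamma class followed. Psmb8, a subunit of the immunoproteasome that cuts proteins into presentable peptides, was at 832 CPM in control 1, 668 in control 2, 678 in knockout 1 and 706 in knockout 2. Tap1, which carries those peptides into the endoplasmic reticulum, was at 126 CPM in control 1, 93.6 in control 2, 113 in knockout 1 and 104 in knockout 2. The other gamma members were far lower. They include immunity-related GTPases, which attack the vacuoles of intracellular pathogens, and Gbp2, a guanylate-binding protein of similar function. Igtp was at 28.6, 23.8, 30.2 and 22.3 CPM in control 1, control 2, knockout 1 and knockout 2, the order used from here on. Irgm1, a regulator of the other GTPases, was at 16.8, 27.3, 25.7 and 16.6. Of the GTPases related to each other, Iigp1 was at 19.9, 30.3, 22.7 and 12 CPM. Gm4951, 128 kb from Iigp1 on the same chromosome, was the lowest of them at 8.49, 5.52, 8.19 and 2.77 CPM. Gbp2 lay in between at 19, 23.3, 20.3 and 14.6 CPM. For none of these 5 were both knockout libraries below both controls or above them. The GTPases belong to families of close copies, so their levels are uncertain where reads were shared.

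The gamma-class chemokines were different. Cxcl10, which draws T cells through the receptor Cxcr3, was at 35.3 CPM in control 1, 65.4 in control 2, 8.8 in knockout 1 and 5.96 in knockout 2. Cxcl9, a ligand of the same receptor, was at 5.08 CPM in control 1, 8.12 in control 2, 1.44 in knockout 1 and 0.761 in knockout 2 and was the lowest of all members on average. The genes lie 18.6 kb apart on chromosome 5. For both, the higher knockout library lay below the lower control library. The share of all genes whose libraries separate by genotype was not counted, so such separations of members are a description only.

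Sensors of viral nucleic acid among the type I members showed modest levels. Ddx58, which encodes the RNA sensor RIG-I, was at 28.1, 31.9, 42.4 and 32.5 CPM. Ifih1, which encodes the RNA sensor MDA5, was at 24.7, 22.2, 26.4 and 20.7 CPM. Their regulator LGP2, encoded by Dhx58, was at 19, 18.4, 20.6 and 13.4 CPM. These RNA sensors signal through a common adaptor in mitochondria, or regulate those that do. Zbp1, a sensor of left-handed nucleic acid that can start cell death, was at 14.7, 17.9, 19 and 10.2 CPM. The transcription factors that carry the signal were all transcribed. Irf9 was at 41.4, 43.5, 46.3 and 37.6 CPM. Stat2 was lower, at 13.6, 12.3, 13.5 and 9.69 CPM. Irf7, which amplifies the production of type I interferon, was at 32.6, 48.5, 44.4 and 21 CPM, with the lower library of each genotype well under the higher. Control and knockout values overlapped for each of these genes but Ddx58, whose knockout values lay just above both controls without a call in the comparison of genotypes (0.28, adjusted p = 0.417).

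Among the antiviral effectors, Bst2, the tetherin that holds budding virus on the cell surface, was the highest at 250.3, 236, 332 and 258 CPM. Both knockout values lay above both controls, without a call over all LSK cells. Isg15, a ubiquitin-like protein attached to other proteins, was at 35.1, 72, 60.8 and 30.2 CPM. Usp18, the protease that takes it off again and damps the receptor, was at 10.8, 13.5, 13.7 and 8.02 CPM. Ifit1, Ifit2 and Ifit3 belong to a family that binds foreign RNA and blocks its translation. Ifit1 was at 13.3, 26.6, 17.8 and 7.6 CPM. Ifit2 was at 9.55, 11.3, 10.9 and 8.15 CPM. Ifit3 was at 5.01, 14.4, 6.45 and 1.5 CPM. Ifit3 has a close copy, Ifit3b, and their reads may be divided. These genes lie beside each other on chromosome 19. Ifit3 ran from its highest level in control 2 to its lowest in knockout 2, while knockout 1 lay between the controls. Rsad2, the enzyme viperin, was at 14, 20.9, 19.2 and 6.31 CPM. Mx1, a dynamin-like GTPase, was at 4.73, 5.94, 5.32 and 1.58 CPM. Oasl2, a relative of the oligoadenylate synthetases, was at 42.1, 28.6, 50.2 and 14.7 CPM. In knockout 2 the levels of Isg15, Ifit1, Ifit3, Rsad2, Mx1 and Oasl2 were the lowest of the 4 libraries, whereas knockout 1 lay within or above the controls for these 6 genes. Ifi44 was at 43.5, 58.4, 61.2 and 25.4 CPM. Parp14, an ADP-ribosyltransferase, was at 36.7, 35.4, 40.9 and 27.7 CPM. Trim30a, of the Trim ubiquitin ligase family, was at 62.4, 71.9, 73 and 47.7 CPM. Knockout 1 was the highest and knockout 2 the lowest library for each of the last 3 genes.

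Of the remaining type I members, Ifi27l2a was at 39.9, 101, 159 and 48.8 CPM. Rtp4, a chaperone of receptors, was at 33.8, 51.4, 57.7 and 33.3 CPM. Xaf1, a promoter of apoptosis, was at 41.1, 52.8, 53.7 and 36.5 CPM. Control 2 and knockout 1 were the higher library of their genotype for Ifi27l2a, Isg15, Irf7 and Rtp4, so the genotypes overlapped for these 4 genes, and they did so for Xaf1. Lgals3bp, a secreted glycoprotein, was at 89.6, 74.8, 121 and 99 CPM, above both controls in both knockouts. Ifi35 was at 82.6, 62.7, 68.8 and 73.4 CPM, with the knockouts between the controls. Messages for the ligands were at or near 0: no UMI of Ifnb1 or Ifna4 was counted in any library, which does not exclude production by cells outside the sort, and Ifng stood at 0.034 to 0.53 CPM. The feedback inhibitors Socs1 and Socs3 were at 7.69, 15.5, 10.3 and 10.8 CPM and at 22.3, 51.7, 32.8 and 33.3 CPM.

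The members were then compared across progenitor types. Cells were assigned to a type if at least 2 of its 8 markers were detected and the markers' share of UMIs was at least 3 times the mean over all cells. Of 14041 cells, 892 were stem-like (markers such as Mecom, Hlf and Procr), 919 Dntt+ lymphoid-primed, 537 megakaryocyte-primed, 332 erythroid-primed and 1316 neutrophil-primed, while 8998 passed no gate and 720 passed several. Each type had the highest summed level of its own markers among the types fitted, for example 1312 CPM in stem-like cells and 228 CPM in cells of no gate for stem-like markers. The gates select on these markers, so this is no check of the types. Neutrophil-primed cells could not be tested because knockout 1 and knockout 2 held 7 and 8 of them. UMIs were summed by library and type, and each type was compared with the cells of no gate of the same 4 libraries by edgeR's quasi-likelihood test, with adjusted p-values by Benjamini-Hochberg over 10079 genes. All members but Cxcl9 were abundant enough for this comparison.

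Stem-like cells held more of most members. Of 34 members tested, 24 rose and 1 fell, where 22% of all tested genes rose and 20.7% fell. The median log2 difference was 0.67 over the members and 0.04 over all genes. The rise covered both classes: 17 of 24 type I members, 5 of 8 gamma members and both Ifitm genes were higher. The largest differences were in the gamma GTPases. In control 1, control 2, knockout 1 and knockout 2, Iigp1 was at 44.6, 83.1, 98.4 and 62 CPM in stem-like cells and 18.4, 31.7, 20.2 and 10.9 in cells of no gate (log2 difference of 1.75, SE 0.21, adjusted p = 6.18e-07). Gm4951 was at 23.9, 20.6, 25.3 and 15 against 8.3, 5.39, 7.68 and 2.37 CPM (log2 difference of 1.78, SE 0.24, adjusted p = 3.03e-06). The stem-like value was the higher in every library for both genes, and the ranges of the types did not overlap. The other gamma members that rose were Gbp2, by 0.89 on the log2 scale (adjusted p = 6.68e-05), Irgm1 by 0.71 (adjusted p = 5.24e-05) and Igtp by 0.61 (adjusted p = 0.00347). Tap1 and Cxcl10 did not pass the test (0.10 and -0.30).

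Of the type I effectors, Ifit1 was at 27.7, 64.9, 59.4 and 36.3 CPM in stem-like cells and 12, 30.02, 16.6 and 7.05 in cells of no gate, a log2 difference of 1.49, SE 0.23, adjusted p = 1.17e-05. Oasl2 was at 90.8, 70.4, 103 and 37.6 against 45.1, 29.3, 49.99 and 13.5 CPM, a log2 difference of 1.06, SE 0.12, adjusted p = 1.93e-07. The rise of both was seen in each library. Ifi44, Ifit3 and Rsad2 rose by 1.12, 1.11 and 1.09 on the log2 scale. Smaller rises, between 0.57 and 0.69, were found for Isg15, Ifit2, Parp14, Trim30a and Xaf1, and Rtp4 rose by 0.85. The sensors moved with the effectors: Ddx58 rose from 31.2, 34.6, 42 and 33 CPM in cells of no gate to 66.4, 78.3, 87.7 and 66.4 in stem-like cells (log2 difference of 0.97, SE 0.11, adjusted p = 1.10e-07), Zbp1 by 0.81 on the log2 scale and Ifih1 by 0.73. So did the factors Irf7, Irf9 and Stat2, by 0.85, 0.71 and 0.69. Bst2, Lgals3bp, Ifi35, Dhx58, Usp18, Mx1 and Ifi27l2a did not pass the test. The exception was Psmb8, at 538, 431, 567 and 575 CPM in stem-like cells and 821, 644, 682 and 712 in cells of no gate (log2 difference of -0.55, SE 0.07, adjusted p = 1.74e-06).

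**Figure D2:**
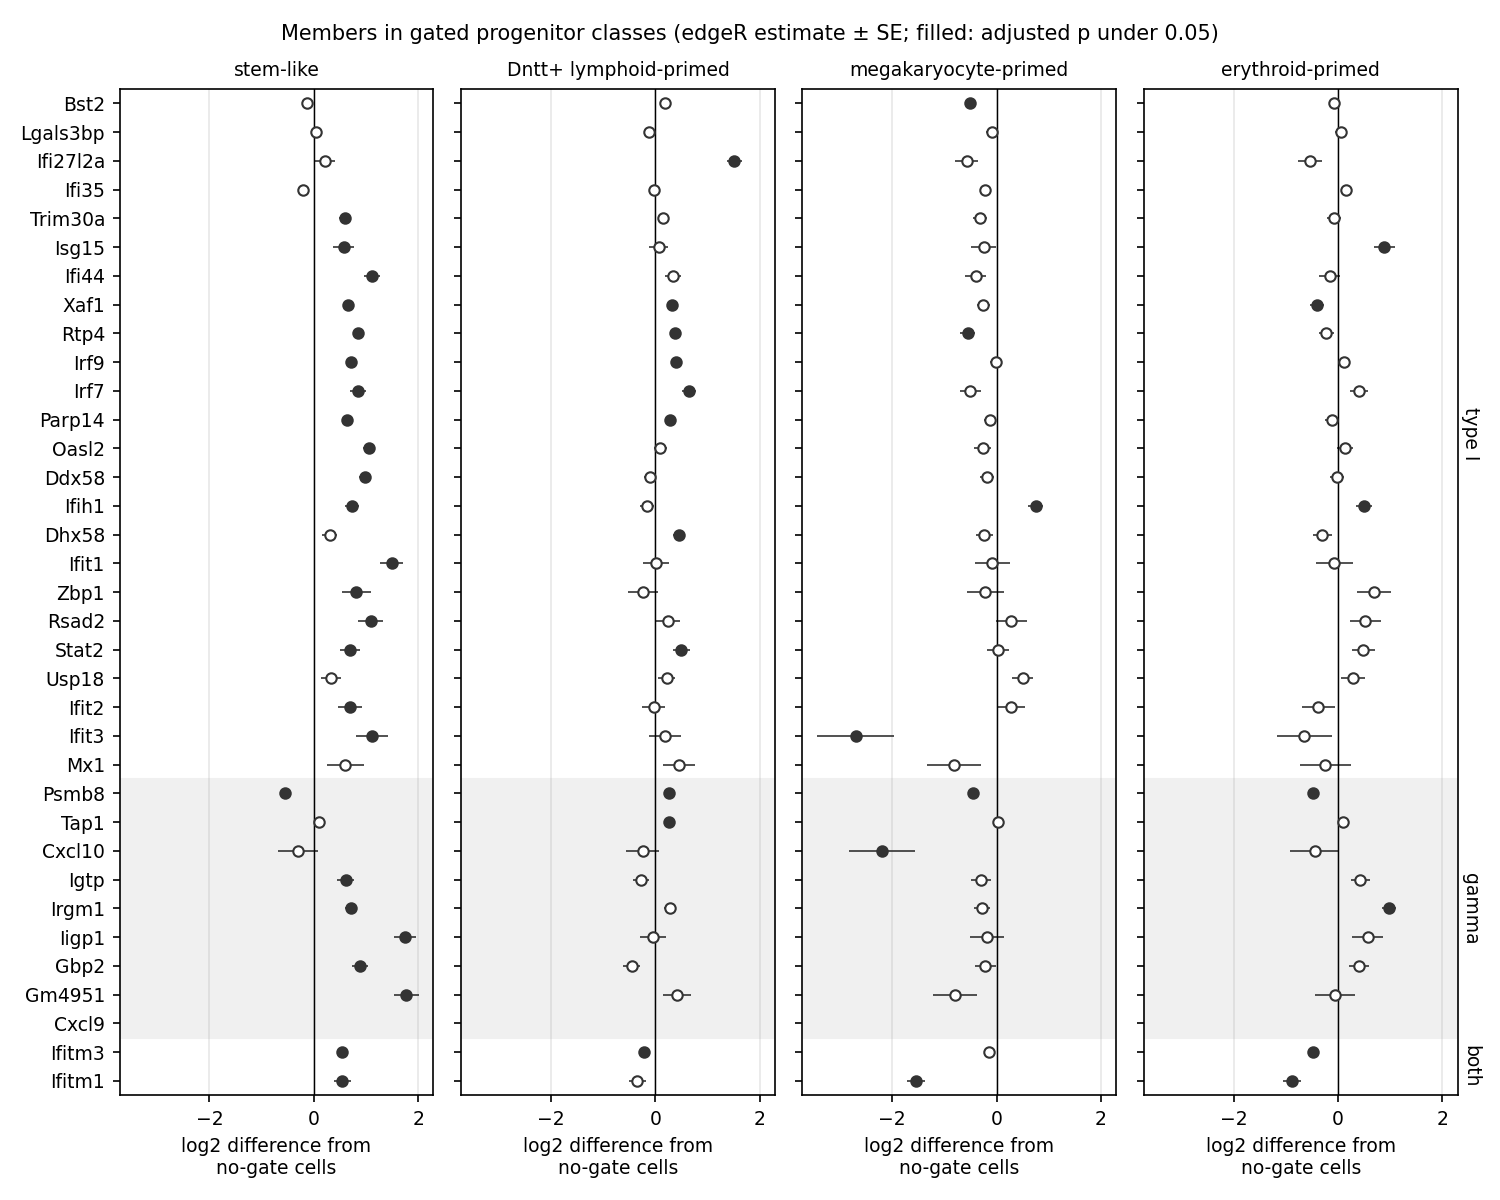
Difference of each member between a gated progenitor type and cells of no gate, on the log2 scale (x axis; points are edgeR estimates, bars are SE, filled points have adjusted p under 0.05), with 1 panel for each of the 4 types. In stem-like cells 24 members lie to the right of 0 with filled points and Psmb8 lies to the left, whereas in megakaryocyte-primed cells 6 filled members lie to the left.

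Ifitm3 and Ifitm1, already the most abundant members, were higher still in stem-like cells. Ifitm3 was at 1635, 1803, 2319.8 and 2205 against 1161, 1253, 1444 and 1212 CPM (log2 difference of 0.54, SE 0.07, adjusted p = 1.29e-06) and Ifitm1 at 2123, 2916, 1456 and 1453 against 1621, 1928, 812 and 841 CPM (log2 difference of 0.54, SE 0.16, adjusted p = 0.00894). Ly6a moved the same way, at 408, 428, 570.0 and 430.1 against 142, 188, 256 and 185 CPM. In a wider list of 88 genes of the same pathways that are no members, 72 were tested, of which 39 were higher and 6 lower in stem-like cells, with a median log2 difference of 0.35. Stem-like cells were also shallower, with median UMIs of 3106, 8666, 11309 and 9078 against 5840, 13385, 19975 and 15484, and had more immediate early transcripts, at 4784 against 2161 CPM. The part of either in the result was not tested. With all barcodes kept, the counts were again 24 higher and 1 lower, and with DESeq2 22 higher and 1 lower, without Isg15 (adjusted p = 0.0514) and Zbp1 (adjusted p = 0.0837). Of the 25 calls, 22 held without each library in turn. Isg15 was lost without knockout 2 (log2 difference 0.37, adjusted p = 0.166), and Ifit2 and Zbp1 without knockout 1 (0.63, adjusted p = 0.0707, and 0.52, adjusted p = 0.213) and without knockout 2 (0.35, adjusted p = 0.234, and 0.65, adjusted p = 0.111).

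Dntt+ lymphoid-primed cells shared a smaller part of this pattern. Here 10 members rose and 1 fell, against 7.1% and 6.44% of all genes. Ifi27l2a showed the largest difference, at 119.5, 217, 303 and 91.2 CPM in Dntt+ cells and 38.6, 77.9, 121 and 31.1 in cells of no gate (log2 difference of 1.52, SE 0.15, adjusted p = 2.65e-08). The factors Irf7, Stat2 and Irf9 rose by 0.65, 0.50 and 0.40 on the log2 scale, and Dhx58, Rtp4, Xaf1 and Parp14 by 0.28 to 0.45. Psmb8 and Tap1, the antigen processing genes, rose by 0.26 and 0.27. Psmb8 was at 857, 769.7, 828 and 908 CPM in these cells. The only member to fall was Ifitm3, by 0.22, from 1161, 1253, 1444 and 1212 to 932, 1047, 1217 and 1079 CPM. Of the wider list, 16 genes were higher and 5 lower. Without control 1, control 2, knockout 1 and knockout 2 in turn, 9, 7, 6 and 4 members were called in place of 11. Ifi27l2a, Irf7 and Irf9 were called each time, whereas Ifitm3 and Parp14 were lost without any single library, Stat2 without each but knockout 1, Psmb8, Tap1 and Xaf1 without knockout 1 or 2, Rtp4 without control 2 and Dhx58 without knockout 2.

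Megakaryocyte-primed cells stood at the other end. Of 34 members, 1 rose and 6 fell, where 8.78% of all genes rose and 9.59% fell, and the median of the members was -0.24. Ifitm1 was at 767, 429.9, 255 and 304 CPM against 1621, 1928, 812 and 841 in cells of no gate (log2 difference of -1.55, SE 0.17, adjusted p = 2.26e-07). Ifit3 was at 0.489, 0, 1.05 and 0.811 CPM, few UMIs in every library (log2 difference of -2.70, SE 0.74, adjusted p = 0.0108). Cxcl10 was at 0.978, 2.72, 9.44 and 4.46 against 23.6, 84.3, 9.43 and 6.15 CPM (log2 difference of -2.20, SE 0.63, adjusted p = 0.0144), a call that DESeq2 did not make (adjusted p = 0.211). The Cxcl10 call was lost without control 1 (log2 difference -1.43, adjusted p = 0.132) and without control 2 (-1.67, adjusted p = 0.0746), and knockout 1 had the same level in both types. That of Ifit3 was lost without control 1 (-2.32, adjusted p = 0.0803) and without knockout 1 (-2.70, adjusted p = 0.0536). Rtp4, Bst2 and Psmb8 fell by 0.56, 0.51 and 0.45, and the Rtp4 call was lost without control 1 (adjusted p = 0.0557) and without knockout 2 (adjusted p = 0.0692). The RNA sensor gene Ifih1 rose instead, to 31.8, 40.8, 40.9 and 43.4 from 24.6, 21.4, 25.8 and 20.1 CPM (log2 difference of 0.75, SE 0.14, adjusted p = 0.000315). Control 2 held 25 megakaryocyte-primed cells. Of the wider list, 6 genes were higher and 20 lower.

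In erythroid-primed cells 3 members rose and 4 fell, where 13.6% of all genes rose and 16.3% fell. Irgm1 was at 35.5, 30.2, 46.9 and 30.2 CPM against 15.8, 26.5, 24.4 and 15.5 (log2 difference of 0.97, SE 0.13, adjusted p = 2.70e-06). Isg15 was at 71, 209, 49.1 and 39.6 CPM against 30.4, 67.6, 61 and 28.3 (log2 difference of 0.89, SE 0.21, adjusted p = 0.00182), higher in 3 of 4 libraries and lower in knockout 1. Ifih1 rose by 0.50. Ifitm1 (-0.89), Ifitm3 (-0.49), Psmb8 (-0.48) and Xaf1 (-0.41) were the members that fell. Ifih1 was lost without control 1 (adjusted p = 0.0627) or knockout 1 (0.0829), and Xaf1 without control 2 (0.0998), knockout 1 (0.119) or knockout 2 (0.0927). In the wider list, 10 genes were higher and 21 lower.

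Most cells had few transcripts of the members, and a small number had many. To compare cells, each was thinned to 3000 UMIs, which left out 1528 shallower cells (1100, 14, 136 and 278 by library), and the 28 members below 100 CPM in every library, 21 of type I and 7 of gamma, were counted as detected or not. The median cell held 1 of the 28 and the most loaded cell 24. A cell with at least 8 is called interferon-high here. There were 334 such cells among 12513 (2.67%), of which 91 held exactly 8, while 152 cells held 7, so the class is a range of a score rather than a cell type. Interferon-high cells were 193 of 6730 in control 1 (2.87%, exact binomial 95% interval 2.48 to 3.29%), 61 of 1186 in control 2 (5.14%, 3.96 to 6.56%), 52 of 1453 in knockout 1 (3.58%, 2.68 to 4.67%) and 28 of 3144 in knockout 2 (0.891%, 0.593 to 1.28%). The intervals cover counting error only. Knockout 1 fell between the controls and knockout 2 below them. The knockout minus control difference was -1.77 percentage points, and an exact two-sided permutation test over the 4 libraries gave p = 0.667, where 0.333 is the smallest value it can give. Without thinning, the shares were 11.3, 35, 58.0 and 26.4% and the difference +19.1 points.

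**Figure D3:**
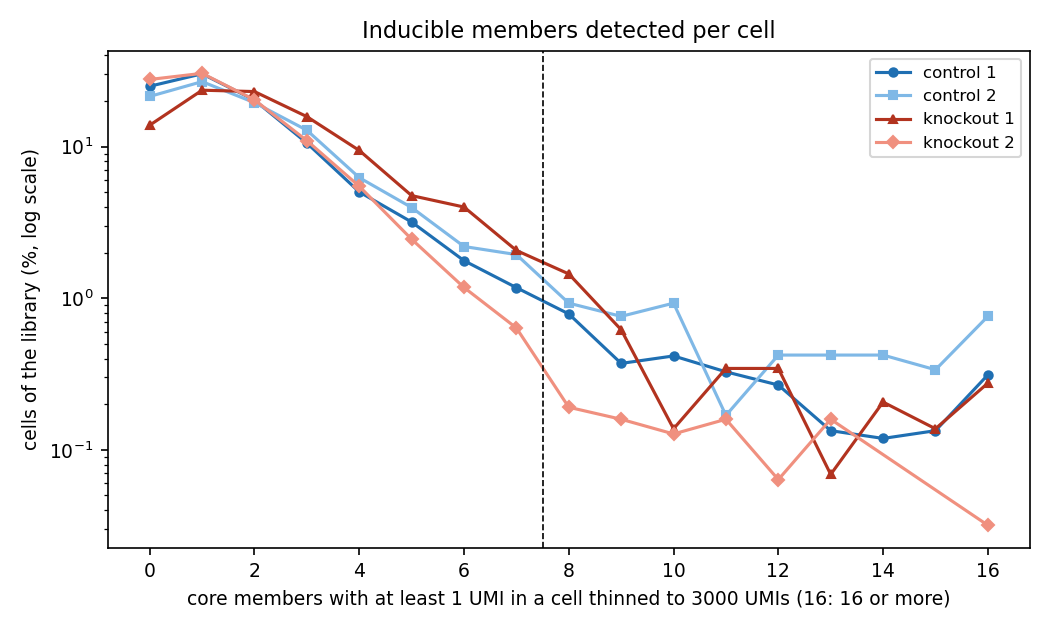
Share of the cells of each library (y axis, percent, log scale) that hold a given number of the 28 core members with at least 1 UMI after thinning to 3000 UMIs (x axis; 16 stands for 16 or more). Most cells hold 0 to 3 members, and the dashed line marks the limit of 8, above which 2.87, 5.14, 3.58 and 0.891% of the cells of control 1, control 2, knockout 1 and knockout 2 lie.

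Interferon-high cells were found in most types. They were 6.82% of stem-like cells (44 of 645, exact 95% interval 5 to 9.05%), 2.42% of cells of no gate (198 of 8181, 2.10 to 2.78%), 3.21% of neutrophil-primed cells, 3.55% of erythroid-primed cells, 1.96% of Dntt+ cells and 0.598% of megakaryocyte-primed cells (3 of 502, 0.123 to 1.74%). In stem-like cells the share was 5.54% in control 1, 8.33% in control 2, 13.3% in knockout 1 and 4.40% in knockout 2, each above the share in cells of no gate of the same library. In Dntt+ cells all 17 came from the controls, 8 of 369 and 9 of 170, with 0 of 76 and 0 of 251 in the knockouts, which allows shares of up to 3.95% and 1.20%. In erythroid-primed cells all 11 also came from the controls, 10 of 173 and 1 of 29, with 0 of 36 and 0 of 72 in the knockouts, which allows up to 8.33% and 4.17%. The observed shares of the genotypes do not overlap in either type, but in both types a knockout limit reaches above a control share. That share was 2.17% in Dntt+ cells of control 1 and 3.45% in erythroid-primed cells of control 2. In Dntt+ cells only the limit of knockout 1 does so, and that of knockout 2, 1.20%, lies below both control shares. A separation is thus not shown, and an exact permutation test of 2 against 2 libraries cannot go below p = 0.333.

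Within these cells, single genes made up very different parts of the response. Each member was read in cells chosen by the other core members. Cxcl10 was at 771 against 7.43 CPM, and the 2.58% of cells that were interferon-high held 69.6% of its UMIs. Ifit3 was at 155 against 1.76 CPM with 66.3% of its UMIs in such cells. For Mx1, Cxcl9, Ifit1 and Rsad2 the shares of UMIs were 43.2, 42.4, 38.7 and 36.7%. Most UMIs of the last 4 genes thus lay in the other cells. By library the share was 63.2, 92.7, 56.2 and 34.6% for Cxcl10 and 43.1, 60.8, 10.9 and 2.56% for Cxcl9, lower in both knockouts than in either control. This was not particular to the chemokines. The share was lower in both knockouts for every other member but Ifitm1, among them Ifit1 (46.1, 50.7, 29.1 and 24.2%) and Psmb8 (3.48, 4.15, 2.96 and 0.794%). How many of all genes do so was not counted, so this is a description only. The share also depends on how many cells of a library were interferon-high, which was fewest in knockout 2. For Kit, which is no member, it was 2.39, 5.79, 3.28 and 0.965%. Isg15 was at 469.8 against 34.6 CPM, Iigp1 at 285 against 13.4 CPM and Usp18 at 123 against 8.16 CPM, with 20.9, 30.3 and 24.9% of their UMIs. The abundant members were spread over all cells: Ifitm1 was at 1456 against 1082 CPM, Psmb8 at 845 against 742 CPM and Tap1 at 204 against 109.8 CPM. Psmb8 was higher in interferon-high cells in 3 of 4 libraries, and the 34 other members in 4 of 4. Ly6a was at 530.1 against 190.4 CPM, and Kit, the other positive marker of the sort, at 100.1 against 86.8 CPM. The receptor genes Ifnar1 (22.7 against 22.1 CPM) and Ifngr1 (62.6 against 59.5 CPM) were nearly level.

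The type I and gamma classes met in the same cells in part. A cell was called type I-high with at least 7 of the 21 type I core members and gamma-high with at least 3 of the 7 gamma core members. There were 314 type I-high cells and 181 gamma-high cells, and 96 were both, which is 30.6% of the first and 53.0% of the second, where 2.51% of all cells were type I-high and 1.45% gamma-high. The share of gamma-high cells that were also type I-high was 49.1, 69.4, 60 and 37.5% in the 4 libraries.

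The comparison of genotypes began with the sum of all cells of a library. With 2 pooled libraries a genotype, p-values measure the spread between these pools, and in such sums fewer cells of a type and less RNA per cell cannot be told apart. Of 13779 genes tested by edgeR's quasi-likelihood test, 474 were called (3.44%), 285 of them lower in the knockout (2.07%). Of the 35 members, 3 were called, all lower: Cxcl10 (log2 difference of -2.82, SE 0.34, adjusted p = 0.0126), Cxcl9 (log2 difference of -2.65, SE 0.39, adjusted p = 0.0214) and Ifitm1 (log2 difference of -0.99, SE 0.18, adjusted p = 0.0399). No type I member was called, and none had an unadjusted p under 0.05, where 2986 of all 13779 genes did. The median log2 difference was -0.18 over the members and -0.01 over all genes, with 29 of 35 below 0. This count rested on knockout 2: without that library 11 of 35 were below 0. With a library left out, 1 genotype is a single library and is assumed to vary as the other does, here and in the comparisons of genotypes that follow, so such p-values are no independent support. The difference then ran from -3.23 to -2.29 for Cxcl10 and from -3.13 to -2.23 for Cxcl9. The calls of both were also made with all barcodes, where the log2 differences were -2.41 for Cxcl10 and -2.25 for Cxcl9, and with DESeq2. Ifitm1 had an adjusted p = 0.130 without knockout 1 and 0.147 without knockout 2, at log2 differences of -0.99 in both. Without knockout 1 more members passed the test, in a fit where the knockout is a single library.

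**Figure D4:**
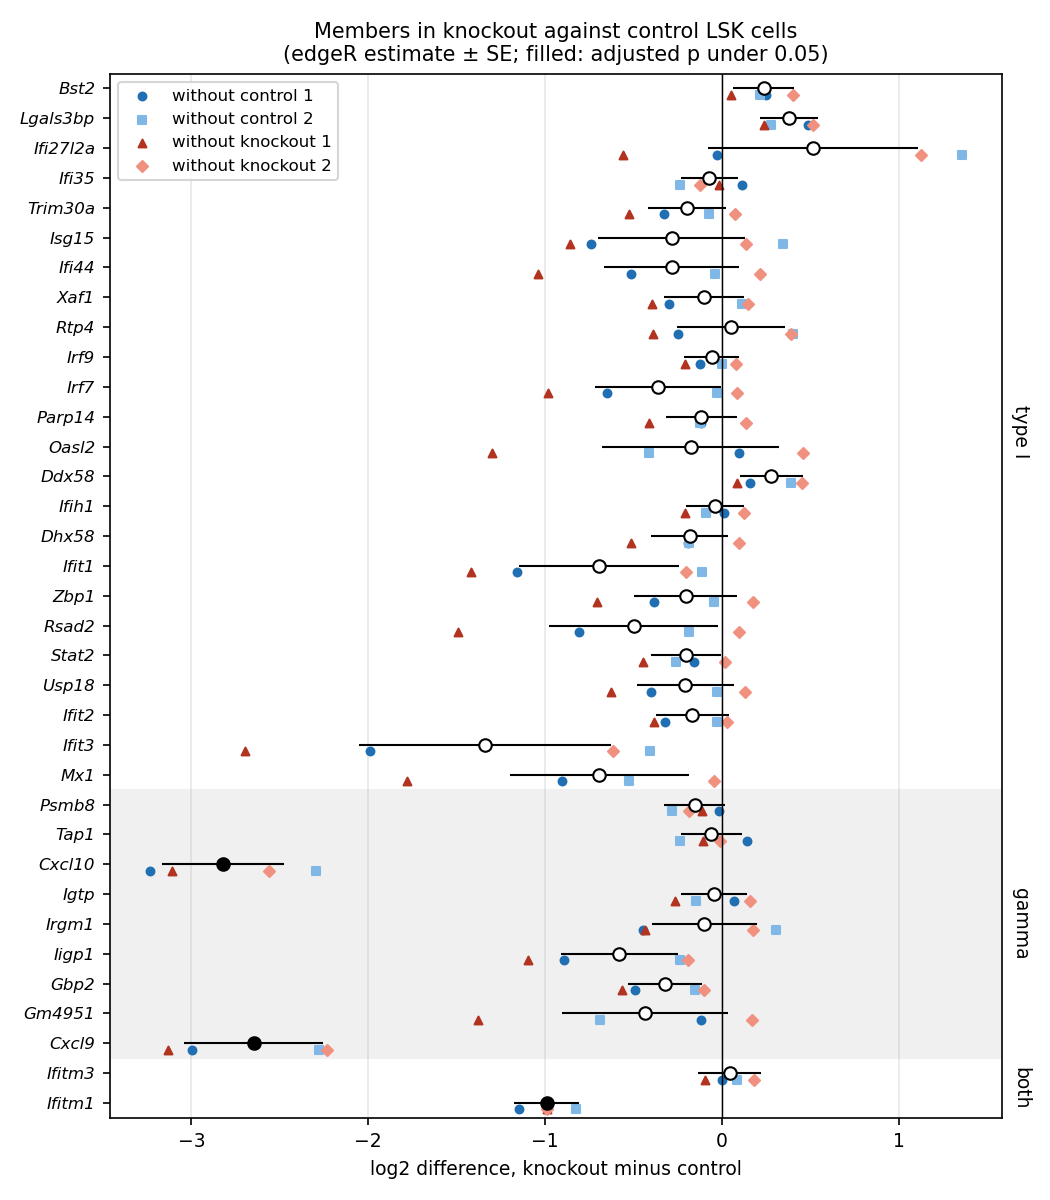
Knockout minus control difference of each member on the log2 scale (x axis; edgeR estimates with SE, filled points with adjusted p under 0.05) over all LSK cells. Cxcl10, Cxcl9 and Ifitm1 lie left of 0 with filled points at -2.82, -2.65 and -0.99, and small symbols give the estimate without each library, which for most type I members lies farthest left without knockout 1.

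Neutrophil-primed cells moved with genotype, at 15.5 and 7.25% of the cells of the controls and 0.441 and 0.234% of the knockouts. They held 15803875 of the 59033602 UMIs of control 1 and 2825658 of the 18846887 of control 2. Their part of the chemokine UMIs was larger than this, except for Cxcl10 in control 2, where it was smaller. Of the 300 Cxcl9 UMIs of control 1, 207 lay in them, and of the 153 of control 2, 59. Of the Cxcl10 UMIs, they held 1140 of 2082 in control 1 and 96 of 1232 in control 2. With this type left out, a choice made after the data were seen, Cxcl9 was at 2.15, 5.87, 1.45 and 0.764 CPM (log2 difference -1.85, adjusted p = 0.117) and Cxcl10 at 21.8, 70.9, 8.87 and 5.97 CPM (log2 difference -2.66, adjusted p = 0.0589). The control values still lay above the knockout values for both genes, and neither call held. Ifitm1 was at 1499.6, 1789, 795 and 786 CPM without these cells (log2 difference -1.06, adjusted p = 0.0419). Immediate early transcripts also moved with genotype, at 3166 and 3418 CPM in the controls and 1196 and 1395 in the knockouts, and their part in these results was not tested. Macrophage markers, 8 genes of a cell type known for Cxcl9 and Cxcl10, summed to 8.54, 4.14, 19.03 and 9.01 CPM with none at 0. Mature neutrophil markers, 8 genes with none at 0, summed to 311, 2148, 125 and 189 CPM, above both knockouts in both controls, and their part in these results was not tested. Control 2, the library with the most Cxcl10, stood apart in these markers and in those of mature erythroid cells, at 127, 1354, 167 and 224 CPM.

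Of the 88 pathway genes that are no members, 79 were tested and 3 were called, where 3.44% of all genes were. The number of calls thus does not set this list apart. Cd74, the chaperone of MHC class II molecules, rose from 57.3 and 55.9 to 261 and 213 CPM (log2 difference of 2.02, SE 0.16, adjusted p = 0.00626). Plasma cell markers, 6 genes with none at 0, moved the same way, at 124, 280.3, 662 and 445 CPM, and their part in the rise was not tested. Gbp5, a guanylate-binding protein, was at 18 CPM in control 1, 23.1 in control 2, 9.68 in knockout 1 and 6.78 in knockout 2 (log2 difference of -1.37, SE 0.23, adjusted p = 0.0315). Irf8, a factor of the monocyte lineage, was at 166 CPM in control 1, 109 in control 2, 58.8 in knockout 1 and 48.9 in knockout 2 (log2 difference of -1.39, SE 0.22, adjusted p = 0.0243). Irf1 (-0.40, adjusted p = 0.192) and Ly6a (0.68, adjusted p = 0.18) did not pass the test.

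Within progenitor types, the fall of Ifitm1 was found most often. In cells of no gate, where 2.42% of all genes were called, Ifitm1 was at 1621, 1928, 812 and 841 CPM and was the only member called (log2 difference of -1.11, SE 0.18, adjusted p = 0.041). In megakaryocyte-primed cells (0.566% of all genes called) it was at 767, 429.9, 255 and 304 CPM and again the only member called (log2 difference of -1.09, SE 0.23, adjusted p = 0.0381). In stem-like cells (5.73% of all genes called) it was at 2123, 2916, 1456 and 1453 CPM (log2 difference of -0.89, SE 0.24, adjusted p = 0.0337). Both knockout values lay below both control values in each of these types. The call was lost without knockout 1 in all 3 types (adjusted p = 0.292, 0.356 and 0.223) and without knockout 2 (0.202, 0.116 and 0.328), with the log2 difference between -1.22 and -0.86. In stem-like cells it was also lost without control 2 (log2 difference -0.56, adjusted p = 0.0607).

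Stem-like cells of the knockout had more of 2 type I members. Ifi27l2a was at 43, 48.3, 161 and 71.4 CPM (log2 difference of 1.23, SE 0.29, adjusted p = 0.018) and Bst2 at 176, 185, 338 and 279 CPM (log2 difference of 0.68, SE 0.19, adjusted p = 0.0436), and both knockout libraries were above both controls for each gene. With all barcodes the adjusted p was 0.0614 for Ifi27l2a and 0.0577 for Bst2. Without knockout 1 the log2 difference was 0.60 for Ifi27l2a (adjusted p = 0.436) and 0.58 for Bst2 (adjusted p = 0.405), and without knockout 2 it was 0.83 for Bst2 (adjusted p = 0.218). Of 33 members tested in these cells, 19 were above 0 and 14 below, at a median of 0.06. In Dntt+ cells (0.883% of all genes called) Cxcl10 was the only member called, at 20.05, 71, 1.95 and 4.61 CPM (log2 difference of -3.60, SE 0.66, adjusted p = 0.0431), and its adjusted p was 0.0699 with all barcodes and 0.476 without knockout 1. With a library left out the difference ran from -4.51 (without knockout 2) to -2.31 (without control 2). The median over 34 members was -0.35 there. In erythroid-primed cells (0.461% of all genes called) edgeR called no member of 29 tested. An unadjusted p under 0.05 was found for 6 of them, and for 765 of all 8463 genes. DESeq2 was not run within types.

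The difference between types in the effect of the knockout was tested by edgeR in a fit with the library as a block, which was added after the other designs. Between stem-like cells and cells of no gate, 2.33% of all genes differed in their knockout effect, among them 2 members. Iigp1 was at 44.6, 83.1, 98.4 and 62 CPM in stem-like cells, with overlapping genotypes, and at 18.4, 31.7, 20.2 and 10.9 in cells of no gate, where its knockout minus control difference was -0.69 on the log2 scale, and the effects differed by 1.01 (SE 0.26, adjusted p = 0.0354). Zbp1 was at 17.9, 17.4, 47.7 and 23.8 in stem-like cells and at 12.9, 18.6, 16.3 and 8.34 CPM in cells of no gate, and the effects differed by 1.28 (SE 0.34, adjusted p = 0.0422). Both calls were lost without knockout 1 (adjusted p = 0.148 and 0.260) and without knockout 2 (0.497 and 0.401), that of Zbp1 also without control 2 (0.0908), and that of Iigp1 with all barcodes (0.66, adjusted p = 0.124). Between erythroid-primed cells and cells of no gate (1.42% of all genes), the effect on Ifitm1 differed by 1.03 (adjusted p = 0.00841), and Ifitm1 was at 606, 667, 735 and 504 CPM in erythroid-primed cells, where it did not separate by genotype. The effect on Isg15 differed by -1.28 (adjusted p = 0.00117), with 71, 209, 49.1 and 39.6 CPM in erythroid-primed cells, and that on Psmb8 by 0.45 (adjusted p = 0.0162), with 470.4, 395, 558 and 565 CPM. All 3 calls were lost without knockout 1, at adjusted p = 0.373, 0.0515 and 0.299, and that of Psmb8 also without control 1 (0.352) or knockout 2 (0.197). The erythroid-primed cells numbered 193, 29, 37 and 73, and their marker Tfrc, the transferrin receptor, was itself lower in the knockout (-1.35, adjusted p = 0.0304), whose part was not tested. For the Dntt+ and megakaryocyte-primed types, 0.298% and 0.189% of all genes differed, with no member called by edgeR. An unadjusted p under 0.05 was found for 5 and 4 members, and for 836 and 625 of all 10079 genes.

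The chemokines were last compared in cells that carried a type I response by other genes. This comparison was added after the data were seen, and the chemokines took no part in choosing the cells. Both had already been called lower over all LSK cells, and the sums share UMIs. Among control cells deep enough to thin, type I-high cells held 55.9% (control 1) and 85.5% (control 2) of the Cxcl10 UMIs. The p-values below are thus no independent support for those calls. The type I-high cells numbered 171 and 60 in the controls and 56 and 27 in the knockouts. In these cells Cxcl10 was at 859, 1459.6, 169 and 265 CPM, and in all other cells at 16.3, 9.66, 3.96 and 4.09. The response cells of both knockouts thus held several times less Cxcl10 than those of either control. By edgeR over 7959 genes (0.503% called), the log2 difference in type I-high cells was -2.57 (SE 0.34, adjusted p = 0.00316). Cxcl9 was at 30.8, 130.4, 5.18 and 2.71 CPM, from 41, 92, 5 and 1 UMIs, with a log2 difference of -4.22, SE 0.76, adjusted p = 0.0182. With a library left out the difference ran from -2.98 to -2.14 for Cxcl10 and from -4.98 to -2.85 for Cxcl9. The p-values of these fits rest on the spread of 1 genotype and are not set beside those of the 4 libraries: without control 1, for example, 680 genes were called in place of 40. Without the neutrophil-primed cells, Cxcl10 was at 639, 1519, 169 and 265 CPM (log2 difference -2.46, adjusted p = 0.0174) and Cxcl9 at 23.4, 143, 5.18 and 2.71 CPM (log2 difference -4.24, adjusted p = 0.0539).

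**Figure D5:**
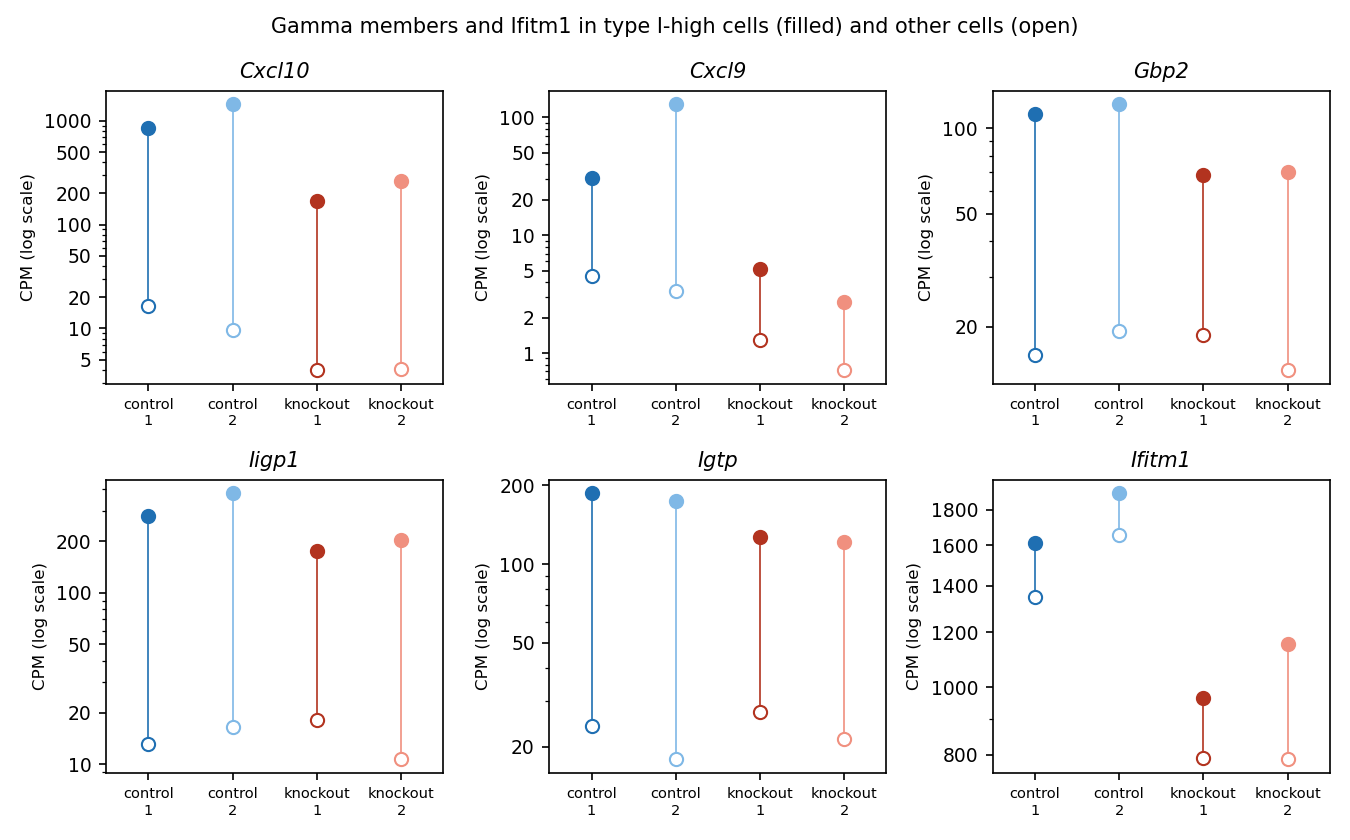
Level (CPM, log scale) of gamma members and Ifitm1 in type I-high cells (filled) and in all other cells (open) of each library, 1 panel for each gene. Filled Cxcl10 points lie at 859, 1459.6, 169 and 265 CPM in control 1, control 2, knockout 1 and knockout 2, and the knockout points also lie below the control points, by less, for Gbp2, Iigp1 and Igtp.

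No other member outside the type I class was called in these cells. Both knockouts lay below both controls for Iigp1, Gbp2, Gm4951, Igtp, Ifitm1 and Ifitm3. How many of all tested genes separated in this way was not counted, so this is a description only. Iigp1 was at 279, 381, 176 and 203 CPM (log2 difference -0.94, adjusted p = 0.289), Gbp2 at 112, 122, 68.4 and 70.3 (-0.88, adjusted p = 0.357) and Igtp at 187, 174, 127 and 122 (-0.66, adjusted p = 0.567). The genotypes overlapped for Irgm1, at 73.6, 130.4, 68.4 and 111 CPM (-0.35, adjusted p = 0.909). Psmb8 and Tap1 differed by -0.32 and -0.28, and Ifitm1 by -0.86 (adjusted p = 0.2998). These p-values do not show that the genes were equal. Of the type I members, which chose the cells and are given as a description, 22 of 24 stood below 0 in the knockout, with a median of -0.43. Zbp1 stood lowest (-1.57), followed by Ifit3 (-1.29), Irf7 (-1.03), Ifit2 (-0.97), Mx1 (-0.77) and Ifi44 (-0.66), while Ddx58 (0.03) and Ifi27l2a (0.52) stood above 0.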

How the data were processed

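Sorted LSK cells were profiled with 10x Genomics 3′ single-cell kits, and the authors deposited UMI counts per gene and barcode, made with Cell Ranger 3.1 on mm10. The members and gene lists were chosen with earlier results of these data known. Barcodes were kept from 200 genes upward and up to 10% mitochondrial UMIs, and a barcode with 3 times or more UMIs in another library was left out. Cells that passed several marker gates were set apart, and no doublet caller was run. Counts were summed per library, or per library and type with at least 20 cells, and tested with edgeR 4.0.16 (R 4.3.3; quasi-likelihood, TMM, filterByExpr, Benjamini-Hochberg over all genes, threshold 0.05). Types were compared with the library as a block. DESeq2 1.42.0, all barcodes, no filter, a gate of 3 markers, a replicate block and leaving out each library were the alternatives. Python 3.11.15 with scipy 1.17.1 gave the exact tests and intervals. On simulated counts for all LSK cells (13715 genes), edgeR found 56% of the genes changed by 1 on the log2 scale and 100% of those changed by 2. Among the called, 10.3% were false. For stem-like cells (9718 genes) it found 98% and 100%, with 4.81% false. Changes were planted only in genes above a floor of mean UMIs, 100 of each size, so these rates do not cover genes with few UMIs.

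Values were given by library for every member called, for the 2 highest and the lowest members of each class and for the others in the tour of levels. Of the 35 members, 31 were called in a comparison and 4 (Usp18, Mx1, Ifi35 and Lgals3bp) in none. The comparison of stem-like cells with cells of no gate alone called 4305 of 10079 genes. How many of all genes were called in at least 1 comparison was not counted, so the 31 are a description only. Total UMIs of 18846887 to 59033602 a library left no member under 10 UMIs. Intervals and limits cover counting error only. Same-numbered libraries of the genotypes did not deviate together (r = -0.0816 over 12342 genes), so the numbers were not taken as pairs. TMM factors were 0.968 to 1.02. Motifs were searched in promoter windows of 26 members, and no promoter of the others was used here.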

Additional observations from a re-analysis of the deposited data

Results flagged for a closer look

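The effect of the knockout differed between progenitor types for 5 members by a test of the difference itself, edgeR's quasi-likelihood test adjusted by Benjamini-Hochberg. In stem-like cells the effect minus that in cells of no gate was 1.01 on the log2 scale for Iigp1, an immunity-related GTPase, and 1.28 for Zbp1, a sensor of nucleic acid. In erythroid-primed cells it was 1.03 for Ifitm1, -1.28 for Isg15 and 0.45 for Psmb8. Leaving out each library in turn gave 0.87 to 1.14 for Iigp1, 1.03 to 1.59 for Zbp1, 0.71 to 1.32 for Ifitm1, -1.73 to -0.94 for Isg15 and 0.34 to 0.51 for Psmb8, so the direction held and each call was lost at least once. The cause was not tested.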

How the results depend on the processing

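Of 232 recomputed differences of single members that left out no library, 218 kept their direction and call and 14 kept the direction only. Of 256 with a library left out, 198 kept both and 58 the direction only, and none reversed. Over all LSK cells, 3 members were called, where 474 of 13779 genes were. No filter gave 7 members beside 1933 of 19166 genes, and the replicate block 5 beside 1257 of 13779. Without neutrophil-primed cells 1 member was called beside 318 of 13623 genes. In these settings the count of members called rose or fell with that of all genes, though not in proportion. Nor were the counts in proportion with a library left out. With a library left out, 11 to 32 members were lower. The replicate block gave 2 calls in cells of no gate, 2 in Dntt+ cells and 2 in erythroid-primed cells. Of all genes, 474 of 13127, 120 of 9962 and 147 of 8463 were called there. All barcodes gave 2, 0 and, in stem-like cells, 1, beside 513 of 13199, 49 of 10011 and 501 of 9865 genes. With a library left out the calls within types were 0 (without either knockout) to 12 (without control 1) for no gate, 1 to 7 (the same libraries) for stem-like, 0 (without knockout 1) to 16 (without control 1) for Dntt+, 0 to 2 for megakaryocyte-primed and 1 (without knockout 2) to 9 (without control 2) for erythroid-primed cells. Calls over all genes were likewise most numerous without control 1 and fewest without a knockout library in cells of no gate, stem-like and Dntt+ cells. In erythroid-primed cells they were fewest without knockout 2 and most numerous without control 1. The member counts within types are thus a description of these fits only. Against cells of no gate, no filter gave 12 calls in megakaryocyte-primed and 13 in erythroid-primed cells, and all barcodes 12 in the latter. Of all genes, 2264 and 3186 of 18789 were called with no filter, and 3351 of 10287 with all barcodes. With a library left out the members called against cells of no gate were 22 to 26 (stem-like), 4 to 9 (Dntt+), 5 to 7 (megakaryocyte-primed) and 6 to 9 (erythroid-primed). All genes called numbered 3253 to 3858, 876 to 1172, 1242 to 1567 and 1828 to 2719 in the same order of types. The difference in the interferon-high share reversed without thinning, to +19.1 points. There cells keep their own depth and the shallower cells are counted too. With a library left out the difference was -3.11 to -0.427 points. In type I-high cells Cxcl10 was -2.98 to -2.14 and Cxcl9 -4.98 to -2.85 with a library left out, and Cxcl9 was -4.24 without neutrophil-primed cells, past the threshold no longer. The cause of these shifts was not tested. The pairing of replicate numbers has no support in the deviations of the libraries. Erythroid-primed and megakaryocyte-primed cells numbered 25 to 41 in control 2 and knockout 1, with 367548 to 953663 UMIs, which limits the precision of their sums. With a library left out of a comparison of genotypes, 1 genotype is a single library assumed to vary as the other does.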
